A study of Mus musculus with 20 samples.

Results

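Accessible chromatin of wild-type (WT) C2C12 cells in control medium (CTL) was compared between day 5 (D5) and day 1 (D1), with 2 libraries a day. C2C12 is a mouse myoblast line that forms multinucleated myotubes in culture. The 4 lists of accessible regions (peaks) were merged wherever peaks shared at least 1 bp, which gave 62549 of the 101352 regions of the whole series, from 4 of its 20 libraries. A region was gained when both D5 lists and neither D1 list held a peak in it, and lost in the reverse case. The same rule was then applied to the 20000 peaks of each list with the highest −log10 p-value, so that all lists were equally long. The series also holds WT cells before the time course (D0), WT cells under methionine restriction (MR) at D1 and D5, and the same days and media for 2 lines lacking Setd2 (KO). Both days compared here share the WT genotype and the control medium, and differ in the day. The labels do not state whether replicates were separate cultures, so the spread between them may be technical.

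During differentiation a myoblast leaves the cell cycle under the control of the MyoD and myogenin family of basic helix-loop-helix factors, which bind E-boxes. Genes for fusion proteins, and then for the sarcomere, the ion channels of excitation-contraction coupling and the enzymes of energy storage, are switched on in sequence. Muscle microRNAs of the miR-1, miR-206 and miR-133 families are transcribed from a few loci and reinforce this program. An ATAC-seq peak marks DNA that the transposase could reach, at a promoter or at a distal element, and does not measure transcription.

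Full lists gave 257 gained regions, 0.411% of the 62549, and 20659 lost regions, 33% of them. In lists cut to 20000 peaks the merged regions numbered 29260, of which 3083 were gained (10.5%) and 3324 were lost (11.4%). Promoters of genes described below are shown first, with the microRNAs of 2 loci with gained regions. The promoter of Tnnc1 held a gained region in both versions, those of Myog and Actc1 held one with 20000 peaks per list and a region in all 4 full lists, and those of Top2a, Spp1 and Ptgs2 held a lost region in both versions. The promoter windows run from 250 bases before to 50 after the annotated start (RefSeq, GRCm38.p6), 5′ to 3′ on the gene's strand, with every E-box (CANNTG) in capitals. Tnnc1 encodes slow and cardiac troponin C, Myog encodes myogenin and Actc1 encodes cardiac alpha-actin. Top2a encodes the topoisomerase of proliferating cells, Spp1 encodes the secreted protein osteopontin, and Ptgs2 encodes the inducible cyclooxygenase.
Tnnc1, chr14:31208062-31208361, + strand: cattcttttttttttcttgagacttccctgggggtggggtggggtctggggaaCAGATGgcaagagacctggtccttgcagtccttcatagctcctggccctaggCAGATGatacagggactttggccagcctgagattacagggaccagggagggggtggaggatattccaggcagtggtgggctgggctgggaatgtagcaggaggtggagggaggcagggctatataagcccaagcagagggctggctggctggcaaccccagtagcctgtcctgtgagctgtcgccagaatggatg
Myog, chr1:134289754-134290053, + strand: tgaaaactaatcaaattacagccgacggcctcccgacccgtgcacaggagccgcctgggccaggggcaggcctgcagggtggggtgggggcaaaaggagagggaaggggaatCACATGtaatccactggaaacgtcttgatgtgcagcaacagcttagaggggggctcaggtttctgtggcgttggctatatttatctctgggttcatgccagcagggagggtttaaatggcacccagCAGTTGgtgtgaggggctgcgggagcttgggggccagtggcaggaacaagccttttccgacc
Actc1, chr2:114052826-114053125, - strand: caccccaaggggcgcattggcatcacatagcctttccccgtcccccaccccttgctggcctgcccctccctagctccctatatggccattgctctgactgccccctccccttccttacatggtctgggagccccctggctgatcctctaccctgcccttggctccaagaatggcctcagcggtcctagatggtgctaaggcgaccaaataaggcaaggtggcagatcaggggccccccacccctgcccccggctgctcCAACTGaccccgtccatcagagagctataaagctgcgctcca
Top2a, chr11:99024140-99024439, - strand: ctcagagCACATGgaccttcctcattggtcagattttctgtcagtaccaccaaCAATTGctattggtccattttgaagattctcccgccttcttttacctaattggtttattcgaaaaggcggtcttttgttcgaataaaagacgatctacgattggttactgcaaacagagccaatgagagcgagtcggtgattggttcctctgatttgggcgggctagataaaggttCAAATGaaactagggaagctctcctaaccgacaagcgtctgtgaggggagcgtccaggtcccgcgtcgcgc
Spp1, chr5:104434861-104435160, + strand: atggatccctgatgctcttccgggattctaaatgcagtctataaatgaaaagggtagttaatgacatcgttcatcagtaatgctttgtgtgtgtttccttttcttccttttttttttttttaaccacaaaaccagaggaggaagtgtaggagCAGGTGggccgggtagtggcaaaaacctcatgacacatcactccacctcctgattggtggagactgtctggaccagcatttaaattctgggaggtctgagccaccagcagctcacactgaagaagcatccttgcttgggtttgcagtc
Ptgs2, chr1:150099781-150100080, + strand: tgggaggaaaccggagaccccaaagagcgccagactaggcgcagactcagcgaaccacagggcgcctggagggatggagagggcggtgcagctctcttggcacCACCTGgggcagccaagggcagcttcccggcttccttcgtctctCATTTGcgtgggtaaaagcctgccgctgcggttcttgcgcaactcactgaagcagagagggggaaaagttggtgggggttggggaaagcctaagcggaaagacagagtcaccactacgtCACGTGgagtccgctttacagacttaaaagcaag

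The mature microRNAs below (RefSeq, GRCm38.p6) are written 5′ to 3′ with the seed, bases 2 to 8, in capitals. The seeds of miR-206-3p and miR-133b-3p differ, although their genes lie side by side on chromosome 1. The third, miR-1a-1-5p, is the 5p product of Mir1a-1 on chromosome 2, and no 3p product of that gene is printed here.
mmu-miR-206-3p, chr1:20679055-20679076, + strand: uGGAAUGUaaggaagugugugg
mmu-miR-133b-3p, chr1:20682834-20682855, + strand: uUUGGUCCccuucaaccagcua
mmu-miR-1a-1-5p, chr2:180389057-180389079, + strand: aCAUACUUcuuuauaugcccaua

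The D5 lists were shorter than the D1 lists and their peaks had lower deposited values, and the set counts must be read beside these values. The D1 lists held 60173 and 45545 peaks and the D5 lists held 22465 and 20847. Median fold enrichment over background, the authors' value per peak, was 4.91 and 4.60 at D1 against 3.75 and 3.61 at D5. The fold of the peak ranked 1000 in its list was 12.9 ± 1.30 at D1 and 6.31 ± 0.320 at D5 (mean ± SD, n = 2 each). Peaks covered 10.5 ± 2.01 Mb at D1 and 3.80 ± 0.134 Mb at D5. Read totals were not analysed here and depth is unknown, and the part that depth or signal over background has in these counts was not tested. No measure overlapped between the days, and each exact two-sided permutation test gave p = 0.333, the smallest that 2 libraries against 2 can give. The 2 KO lists of line 1 at D5 held 644 and 1881 peaks and are given separately wherever KO lists are used.

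**Figure D1:**
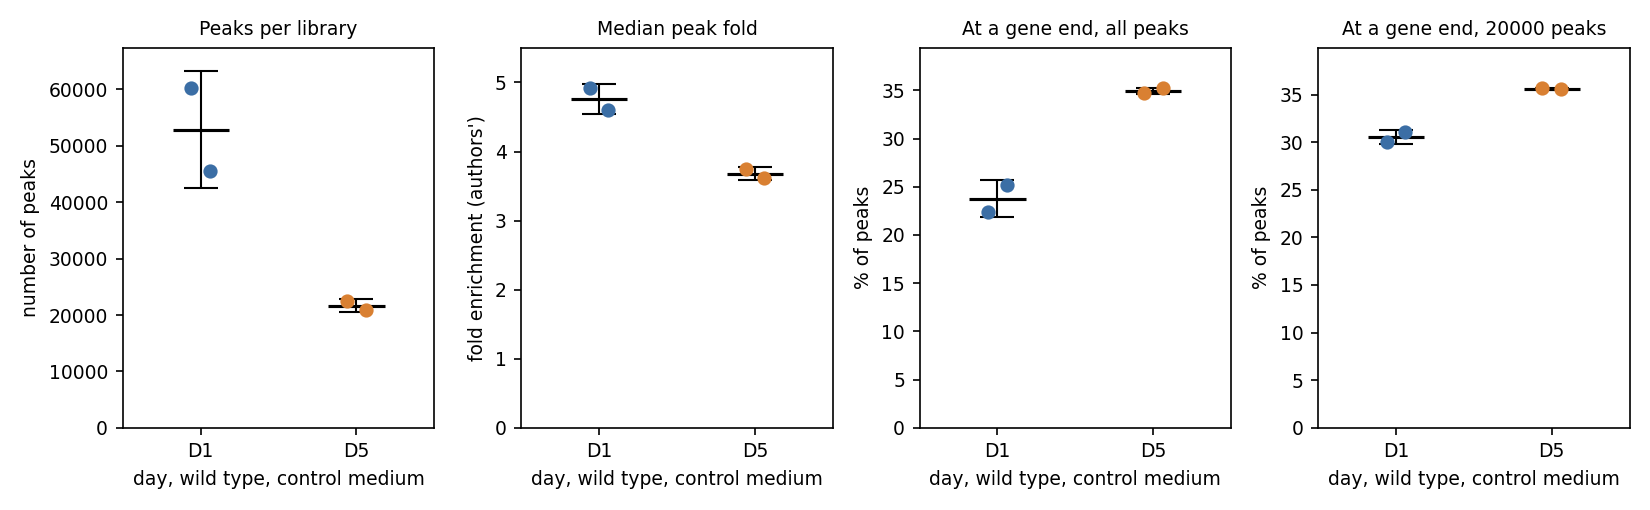
Number of peaks, median fold enrichment (the authors' values) and percent of peaks within 1 kb of a gene end, in full lists and in 20000 peaks per list, for each library (points) with the mean and SD (lines), n = 2 libraries a day. The lists held 60173 and 45545 peaks at D1 and 22465 and 20847 at D5, while the gene-end share was higher at D5 on both scales.

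The labelled cell type was checked against gene-end peaks, meaning a peak within 1 kb of either end of a protein-coding gene. Of 6 myoblast markers, Myod1, Des and Cdh15 had a peak in all 4 lists, and Vcam1, Myf5 and Pax7 had one in no list. Of 9 markers of differentiating muscle cells, Myog, Mymk, Mymx, Acta1 and Actc1 had a peak in all 4, Ckm had one in 3 lists, and Myh3, Tnnt1 and Mef2c had none. Of 36 markers of bone, fat, blood, epithelial and endothelial cells, 28 had no peak in any list, and Pparg, Cebpa, Spi1 and Krt8 had one in all 4. A promoter can be open in cells that do not transcribe the gene, so these calls describe chromatin only.

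Position separated the sets once the lists were equally long. In 20000 peaks per list, 33.2% of gained regions lay at a gene end (Wilson 95% interval 31.5 to 34.9), against 13.4% of lost regions (12.3 to 14.6), 38.8% of regions in all 4 lists and 29.4% of every merged region. Gene bodies held 47.4% of lost and 39.8% of gained regions, and 39.1% and 27.0% lay between genes. Regions over 100 kb from any gene end made up 12.1% of lost and 5.06% of gained regions, and the median distance to a gene end was 16185 bp and 5086 bp. Both changing sets were narrow, with median widths of 141 bp (gained) and 148 bp (lost) against 332 bp for the 11780 regions in all 4 lists. A merged region joins the peaks of every list that held it, so regions in all 4 lists can be wider through the merging alone. The intervals treat regions as independent and cover counting error only.

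In full lists the difference in position between the sets was not seen. Gene ends held 15.2% of the 257 gained regions (11.3 to 20.1) and 15.3% of the 20659 lost ones (14.8 to 15.8), both below the 37.9% of the 17369 regions in all 4 lists and the 22% of every region. Across whole libraries the gene-end share of peaks was 23.8% ± 1.92 at D1 and 34.9% ± 0.344 at D5, and in 20000 peaks per list it was 30.5% ± 0.739 and 35.6% ± 0.0742 (SD, n = 2 each). The groups did not overlap on either scale, with an exact two-sided permutation p of 0.333 each.

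**Figure D2:**
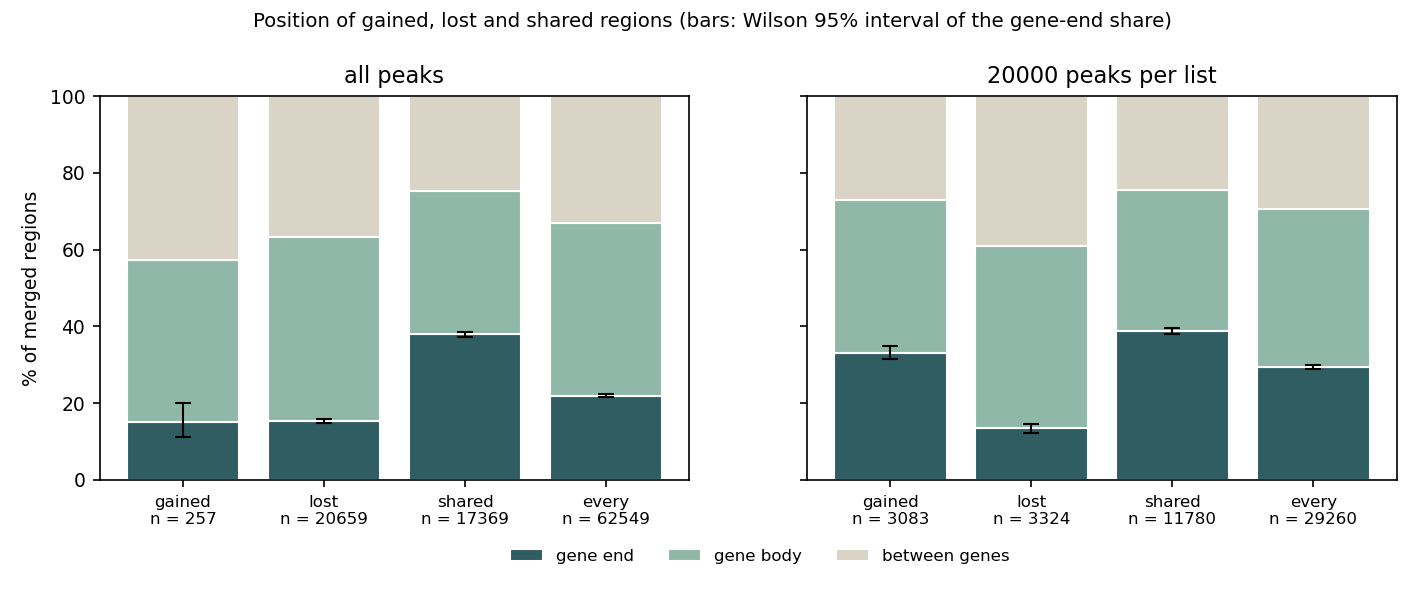
Percent of merged regions at a gene end (within 1 kb), in a gene body and between genes, for gained, lost and shared regions (in all 4 lists) and every region, with Wilson 95% intervals of the gene-end share. With 20000 peaks per list the gained set had 33.2% at gene ends and the lost set 13.4%, while in full lists both sets were near 15%.

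The 2 versions of the gained set are different kinds of region. Of the 3083 regions gained in equally long lists, 2617 had a peak in both full D1 lists, 296 in 1 of them and 170 in none, so most of them were not absent at D1. Of the 3324 lost ones, 3051 had no peak in either full D5 list. The weakest peak kept had a −log10 p-value of 14.9 and 10.5 in the D1 lists and of 5.36 and 4.85 in the D5 lists, and the first peak left out was at 14.9, 10.5, 5.36 and 4.85 to the same precision. The cut removed 66.8% and 56.1% of the D1 peaks and 11% and 4.06% of the D5 peaks, so a region can enter this set through the length of the D1 lists alone. Below, gained by rank means gained with 20000 peaks per list, which does not show a rise in signal.

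With 20000 peaks per list, sarcomere and muscle metabolism genes had the largest gained shares among the gene lists with at least 30 regions. A region within 1 kb of a gene end was given to the gene with the nearest end, even if it overlapped another gene. Any other region was given to the gene it overlapped or, failing that, to the gene with the nearest end. In 20000 peaks per list 36 of 153 regions at sarcomere genes were gained, 23.5% against 10.5% of every region, and 4 were lost, 2.61% against 11.4%. They lay at 21 genes, among them Myom3 with 5 gained regions, Myh3 with 4, Acta1 and Myl1 with 3 each, and Actc1, Mylpf, Tnnc1 and Tnnt3 with 2 each. In full lists 11 of 279 sarcomere regions were gained, 3.94% against 0.411%, 5 of these were given to Myh3, and 66 were lost, 23.7% against 33%. Muscle metabolism genes had 12 gained (24.5%) and 3 lost regions of 49 with 20000 peaks per list, at Eno3 and Mb (3 each), Ak1, Pfkm, Gys1 and Pygm. Excitation-contraction and neuromuscular junction genes had 16 gained and 7 lost of 121, of which Jph2 and Scn4a held 4 gained each. In full lists lost regions outnumbered gained ones in both, with 1 gained and 21 lost of 89 at muscle metabolism genes and 2 and 50 of 211 at excitation-contraction genes. The gene lists were chosen with earlier results of these data known, and the counts are descriptions with no test.

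The lists given next lay nearer to the background than sarcomere and muscle metabolism genes did, or on the side of loss. Gained shares above the 13.2% of excitation-contraction genes were not limited to muscle lists. They were 16.2% at integrin and laminin genes, 14.5% at Notch and satellite cell genes and 13.8% at AP-1 genes. Fusion genes had 16 gained and 10 lost regions of 123, and myogenic regulators had 20 gained, 5 of them at Myod1, and 23 lost of 156. Full lists gave fusion genes 0 gained and 81 lost of 266 and myogenic regulators 3 and 102 of 331, against 0.411% and 33% of every region. Collagen and matrix genes had 12 gained (6.78%) and 25 lost (14.1%) of 177, with losses at Col4a2 (4), Thbs2 and Tnc (3 each) and Col4a1 (2). Insulin-like growth factor genes had 5 gained and 12 lost (20.3%) of 59. Cell cycle and replication genes had 6 gained and 10 lost of 83, and amino acid response genes of Atf4 had 3 gained, all at Cebpb, and 7 lost of 64.

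**Figure D3:**
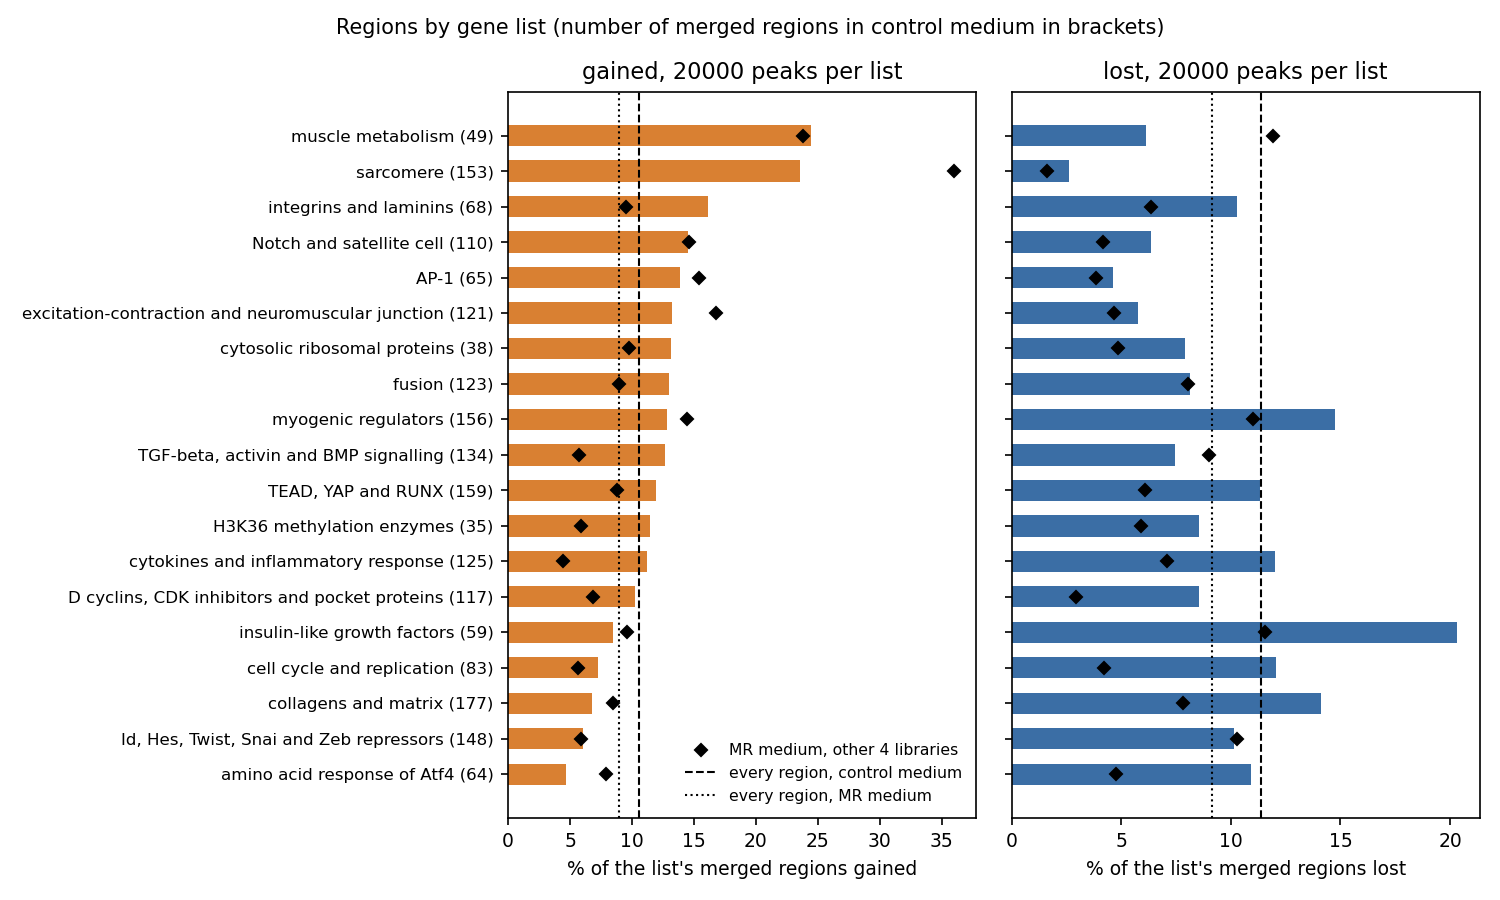
Percent of each gene list's merged regions that were gained (left) or lost (right) with 20000 peaks per list, for lists with at least 30 regions, with bars for control medium, diamonds for the 4 WT libraries in MR medium under the same rule, and dashed or dotted lines for every region in CTL or MR. Sarcomere genes stood at 23.5% gained in CTL and 36% in MR, against 10.5% and 8.96% of every region.

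Single sarcomere promoters showed 2 patterns. At Tnnc1 a region of 120 bp over the start, chr14:31208218-31208337, inside the promoter printed above, had no peak at D1 and −log10 p-values of 7.57 and 6.59 at D5, with folds of 3.54 and 3.20. It was held by no D0 list, 1 of 2 D1 MR lists and both D5 MR lists. A second region inside Tnnc1 had peaks in all 4 lists, with folds of 3.90 and 3.98 at D1 and of 4.40 and 4.08 at D5. So the gene kept an accessible site on both days while the start itself entered the lists only at D5.

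Tnni2, fast troponin I, had end peaks in all 4 lists, with folds of 4.79 and 4.59 at D1 and of 5.19 and 4.53 at D5, and these were among the strongest 20000 only at D5. Actc1 had folds of 4.40 and 4.90 at D1 and of 3.86 and 3.48 at D5. It too was among the strongest 20000 only at D5. Actc1 was called in no D0 list and no D1 MR list, and in both D5 MR lists. The other end peaks gained by rank in this list were those of Tnnt3 (fast troponin T), Mybph and Myom3, components of the thick filament and its M-band, and Tcap, telethonin. Tcap had no D1 peak within 1 kb of its ends and −log10 p-values of 6.01 and 5.96 at D5, but its 2 D5 peaks did not overlap each other and no D5 MR list held one. Gene ends of Myom2 and Myh14 were lost in full lists.

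Of the 3 regions gained at myogenic regulators in full lists, 2 were at Myod1 and 1 at Mef2d. The loci described next were chosen after their values were seen. At Myod1, the first myogenic regulator of this line, the promoter had a peak in all 4 lists, with folds of 6.75, 6.49, 4.43 and 4.02 in D1 replicates 1 and 2 and D5 replicates 1 and 2. A region 5100 bp from the gene, chr7:46371180-46371374, had no D1 peak and −log10 p-values of 12.3 and 11.1 at D5, and was among the 5 strongest gained regions of the full lists. It was held by no D0 and no D1 MR list and by both D5 MR lists. A second gained region lay 27318 bp away, chr7:46348905-46349156, with values of 6.61 and 6.46 at D5, and no MR list held it. Within 40 kb of Myod1, 2 regions were gained, 8 were in all 4 lists and none was lost.

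Of the 5 gained regions given to Myh3 in full lists, 4 lay within 20 kb of it. These 4 ran from chr11:67107087 to 67120965, between the neighbouring myosin heavy chain genes Myh3 (embryonic) and Myh2 (adult fast). Their −log10 p-values at D5 ran from 4.81 to 8.69, and no D0 or D1 MR list held any of the 4. Both D5 MR lists held 2 of them. On the other side of Myh3, 2 regions within 3 kb were lost. The stronger of these had −log10 p-values of 25.3 and 9.28 at D1, and both D5 MR lists held both regions.

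Cdkn1a, the CDK inhibitor p21 that marks cell cycle exit, gained 2 intragenic regions in full lists, chr17:29097257-29097507 and chr17:29098446-29098754. Their −log10 p-values were 5.88 and 6.13 for the first and 4.75 and 5.33 for the second in D5 replicates 1 and 2. The first was also held by both D1 MR lists, so in MR medium it was present on both days. A Cdkn1a end peak was in both D1 lists and no D0 list, with folds of 3.94 and 3.79 at D1 and 3.19 and 3.03 at D5.

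Myog did not gain a region in full lists. Its end peak was held by no D0 list and by both lists each of D1, D5, D1 MR and D5 MR. Its −log10 p-values were 11.1 and 7.92 at D1 and 7.995 and 7.773 at D5, and its folds were 5.01, 4.19, 3.62 and 3.47. The peak ranked 28501 and 27635 in the D1 lists and 12371 and 11894 in the D5 lists, and ranks from lists of different lengths show no change by themselves. Around Myog 3 regions were gained with 20000 peaks per list, including the one over the promoter, and 2 upstream regions were lost in full lists. Acta1, skeletal alpha-actin, had the same order of days, with no D0 list and all 4 lists here, and folds of 8.06 and 5.42 at D1 and of 4.30 and 3.92 at D5.

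Of 25 fusion genes, 19 had an end peak in both full D1 lists and 13 in both D5 lists, and among the strongest 20000 the counts were 9 and 13. Over all genes the counts also fell in full lists, from 9962 to 7059, and rose among the strongest 20000, from 5853 to 6710. Mymk, which encodes myomaker, had folds of 16.1 and 12.9 at D1 and of 4.78 and 4.39 at D5, and Mymx, which encodes myomixer, had 7.99 and 8.64 at D1 and 4.11 and 5.48 at D5. Neither gene end was gained or lost in either version. A region 2986 bp from Mymk was gained by rank, with folds of 4.72 and 4.19 at D1 and of 3.61 and 2.96 at D5. Cav3, caveolin 3 of the muscle membrane, had a peak of fold 3.53 in D1 replicate 1 alone and of 3.97 and 3.997 at D5, and was gained by rank. Its D5 MR lists both held it and its D1 MR and D0 lists did not. Cdh2, Ncam1 and Elmo2 were also gained by rank with a peak in all 4 full lists. Itga3, Adgrb1, Rac1, Kirrel3 and Neo1 lost their gene-end peaks in full lists.

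Of 21 excitation-contraction and neuromuscular junction genes with an end peak in both D5 lists of 20000, 5 were gained by rank (23.8%). Over all genes it was 913 of 6710 (13.6%). Scn4a, the sodium channel of the muscle action potential, had a peak of fold 4.14 in D1 replicate 1, none in D1 replicate 2, and folds of 3.75 and 3.11 at D5. Cacna1s, the voltage sensor of the T-tubule, had folds of 4.12 and 2.96 at D1 and of 4.34 and 3.21 at D5. The other 3 were Jph2, Cacna2d1 and Sgcb. Musk, the receptor kinase of the neuromuscular junction, was lost in both versions, with folds of 6.63 and 5.41 at D1 and no D5 peak, though both D5 MR lists held it.

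The muscle microRNA loci held gained regions in full lists. Of 1072 microRNA genes, 24 (2.24%) had a gained region within 20 kb in full lists, and 143 (13.3%) with 20000 peaks per list. Mir1a-1 had 6 within 20 kb, the nearest 130 bp from the mature sequence at chr2:180389209-180389775, with −log10 p-values of 8.63 and 5.52 at D5 and no D1 peak. The nearest lost region was 81909 bp away. None of the 6 was held by a D0 or D1 MR list, and 2 of them were held by both D5 MR lists. Within 40 kb 5 regions that all 4 lists held lay among them, and with 20000 peaks per list 9 were gained and none was lost there. Regions in this interval were far from any protein-coding gene end, 33778 bp or more for the 6 gained ones.

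Mir206 and Mir133b share 2 gained regions. The nearer one, 5750 bp from Mir206 at chr1:20673112-20673260, had −log10 p-values of 9.77 and 8.41 at D5. No D0 or MR list held either region, so they were not seen again in the other medium. With 20000 peaks per list 3 regions were gained, the nearest 362 bp from Mir206, and none was lost within 20 kb. The microRNA genes Mir221 and Mir222, which are linked to proliferation, had 2 lost regions each within 20 kb in full lists, against 493 microRNA genes (46%) with at least 1. In equally long lists they had 1 each, against 97 genes (9.05%). Gained regions were not particular to the muscle microRNAs. In full lists Mir23a and Mir27a each had 2 gained and 2 lost regions within 20 kb, and Mir24-2 had 2 gained and 3 lost. With 20000 peaks per list these genes and Mir21a had 3 gained and 0 lost each.

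**Figure D4:**
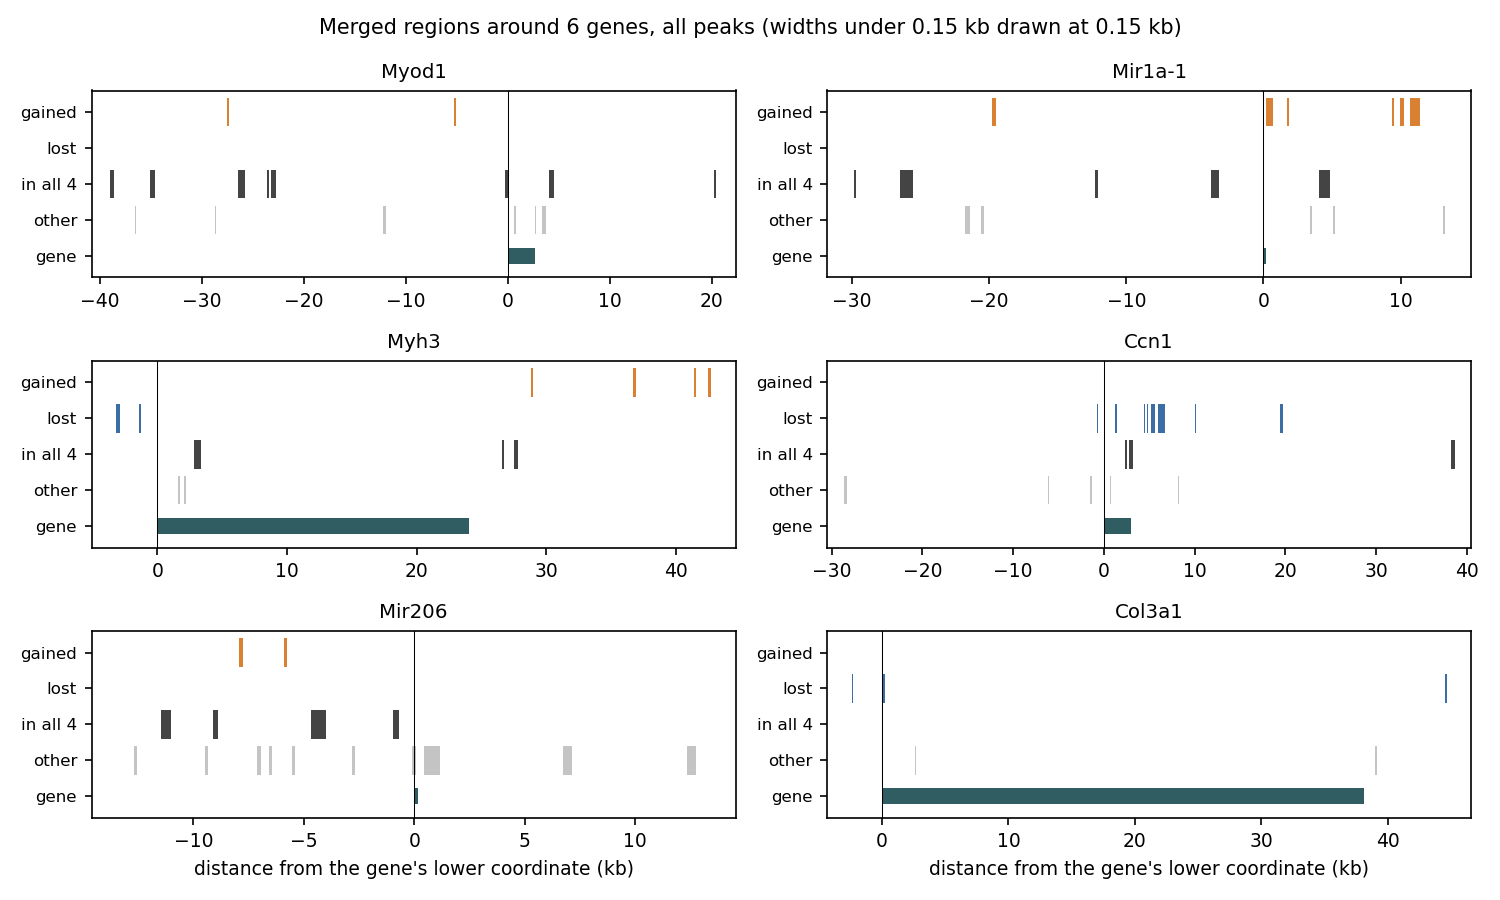
Merged regions of the full lists around Myod1, Myh3, Mir206, Mir1a-1, Ccn1 and Col3a1, by distance in kb from the gene's lower coordinate and by set (gained, lost, in all 4 lists, any other pattern), with the gene drawn at the bottom. Gained regions lie beside Myod1, beyond Myh3 and around both microRNA genes, and Ccn1 shows 8 lost regions.

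The strongest regions of each set were ranked within their own day's lists. Those nearest to Zfp407, Dcbld2, Epb41l4a and Lrrc17 were among the 5 strongest lost regions of the full lists, and their −log10 p-values at D1 ran from 36.2 to 75.9. Both D5 MR lists held the Dcbld2 region, 1 held those at Zfp407 and Epb41l4a, and neither held that at Lrrc17. The 5 strongest gained ones were nearest to Wbp11, Nfib, Pisd, Myod1 and Acsl1, with values at D5 from 7.63 to 16.3. No other library of the series held the Wbp11 region. Both D5 MR lists held those at Nfib, Myod1 and Acsl1, and 1 held that at Pisd. The Nfib region was also in both D1 MR lists and 1 WT D0 list. With 20000 peaks per list the strongest gained regions were nearest to Rnf41, Bend3, B4galnt1, Smim14 and Gpc1, and Patj replaced Lrrc17 among the lost ones.

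Regions also gathered at some genes. Septin9, a cytoskeletal filament protein, had 7 gained regions of 32 with 20000 peaks per list and 1 lost region. Ablim1 (5 of 14), Adamts14 (5 of 9), Myom3 (5 of 6) and Plec (5 of 16) followed, tied with Ubtd1, Zbtb46 and Zc3h3. Plec encodes plectin, which links desmin filaments to the cell edge. In full lists the Myom3 locus had 1 gained region, 5 in all 4 lists and 1 lost, the lost one 163 bp from a gene end. The Myom3 gene-end region gained by rank had folds of 5.34 and 4.10 at D1 and of 4.18 and 3.31 at D5. Atxn1 (5 of 11) and Coro1c (5 of 14) had the most lost regions, ahead of several genes with 4, including Adam12, Agap1 and Bcar3. Long genes can hold more regions, and Atxn1 spans 415 kb.

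Gene-end peaks were counted by gene, with no test. In full lists 1929 genes lost theirs, 19.4% of the 9962 genes called in both D1 lists and 8.92% of all 21627, and 21 gained one, 0.297% of the 7059 called in both D5 lists and 0.0971% of all. In equally long lists 352 genes lost theirs, 6.01% of 5853 and 1.63% of all, and 913 gained one, 13.6% of 6710 and 4.22% of all. Of the 21 genes that gained in full lists, 15 had an end peak in both D1 MR lists, which held 69881 and 57676 peaks. These genes thus had an end peak at D1 in the other medium, and whether it was at the same site was not tested. Of the 1929 genes that lost theirs in full lists, 1057 had an end peak in both D5 MR lists and 512 in neither. Those D5 MR lists held 39538 and 39263 peaks.

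In full lists 10 of 26 collagen and matrix genes called at D1 were lost: Col1a1, Col1a2, Col3a1, Col4a1, Col4a2, Col6a2, Dcn, Thbs2, Tnc and Spp1. So were 7 of 22 cytokine and inflammatory genes, Ptgs2, Lif, Ccl2, Ccl7, Cxcl1, Cxcl5 and Irf7, and 4 of 10 insulin-like growth factor genes, Igfbp2, Igf2bp2, Akt2 and Igf1r. The cell cycle list lost 7 of 53, Aurkb, Top2a, Tk1, E2f2, Tyms, Mcm2 and Mki67, and sarcomere genes lost 2 of 26, both under the 19.4% of every gene. Cytosolic ribosomal protein genes lost 9 of 31.

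The strongest of these losses by D1 value were as follows. Ptgs2 had −log10 p-values of 26.4 and 18.9 at D1 and no D5 peak, with the lost region inside the promoter printed above. Irf7, an interferon response factor, had 22.9 and 21.1 at D1. Supt6, an elongation factor gene, had 42.7 and 21.0 at D1. These were absent at D5 in CTL, while in MR at D5 both lists held Ptgs2 and Supt6 and 1 list held Irf7.

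Spp1 had folds of 7.15 and 6.59 at D1, and Col3a1, which encodes a fibrillar collagen, had 6.44 and 5.95. Tnc, tenascin C, had 6.49 and 5.85. Both D5 MR lists held Spp1 and Tnc and 1 held Col3a1, so the absence at D5 was not seen at Spp1 and Tnc in MR. Top2a and Mcm2, which act in DNA replication, had folds of 6.90 and 5.69, and of 6.32 and 6.43, at D1 and no D5 peak, and both D5 MR lists held them. Igfbp2, an insulin-like growth factor binding protein, was lost with folds of 6.84 and 5.15 at D1, and neither D5 MR list held it.

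Ccn1 is a matricellular gene and a known target of YAP and TEAD. In full lists 9 lost regions were given to it, of which 8 lay within 40 kb, and no gained one. All but 2 of these 8 lay beyond the gene on its upper side, up to 16339 bp away. The strongest, chr3:145657026-145657136, had folds of 10.4 and 7.53 at D1. Both D5 MR lists held 7 of the 8. In equally long lists 1 region at the gene end was gained and 4 around the locus were lost, the gained one with folds of 2.77 and 2.84 at D1 and of 3.54 and 3.36 at D5.

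Promoter sequence was described for the sets. Among equally long lists, 764 promoter windows of 300 bases overlapped a gained region, 266 a lost one and 4449 one in all 4 lists, of 21044 windows of 17273 genes. Median GC content was 66.3% in gained, 56.7% in lost, 62.7% in shared and 56.7% in every window. The GC box GGGCGG was found on either strand in 78.3% of gained, 44.4% of lost, 72.9% of shared and 46.7% of every window. The CCAAT box was in 29.6%, 30.8%, 49.0% and 38.5%, and the E-box CANNTG in 55.9%, 63.9%, 58.7% and 69.0%. Gained promoters thus had more GC and more GC boxes than lost ones and did not have more E-boxes. A match is a description of letters and not a bound site.

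The regions were then looked up in libraries that the rule had not used. Cut to 20000 peaks, the D5 MR lists held 54.9% and 53.6% of the gained regions, the D1 MR lists held 24.5% and 27.0%, and the D0 lists held 18% and 29.4%. Of the lost regions the D5 MR lists held 32.3% and 35.5%, the D1 MR lists held 64.8% and 63.4%, and the D0 lists held 67.8% and 62.1%. Every merged region was held at 61.8% to 62.9% by these 6 lists, so in MR the 2 days did not overlap for either set and lay in the same order as in CTL, and the D0 lists lay on the side of D1 apart from 1 D0 value above the D1 values for gained regions. With 2 libraries a group the smallest exact p is 0.333.

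In full lists the days were also apart in MR. The D5 MR lists held 73.9% and 71.2% of the gained regions and the D1 MR lists 48.6% and 41.6%, against 57.7% and 57.9%, and 86.5% and 78.9%, of every region. At D0 they were 12.5% and 31.9%. Of the lost regions the D5 MR lists held 49.0% and 50.1% and the D1 MR lists 92.7% and 85.9%.

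KO lists were less uniform. Cut to 20000 peaks, KO line 2 at D5 held 36.6% of gained regions in CTL and 41.6% in MR, and 30.5% and 26.7% of lost ones. At D1 in CTL, line 1 held 40.2% of gained and 36% of lost regions, and line 2 held 21.3% and 52.0%. The D5 lists of line 1 held 0.422% and 2.34% of gained regions, at their 644 and 1881 peaks. The difference between WT and KO was not tested.

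**Figure D5:**
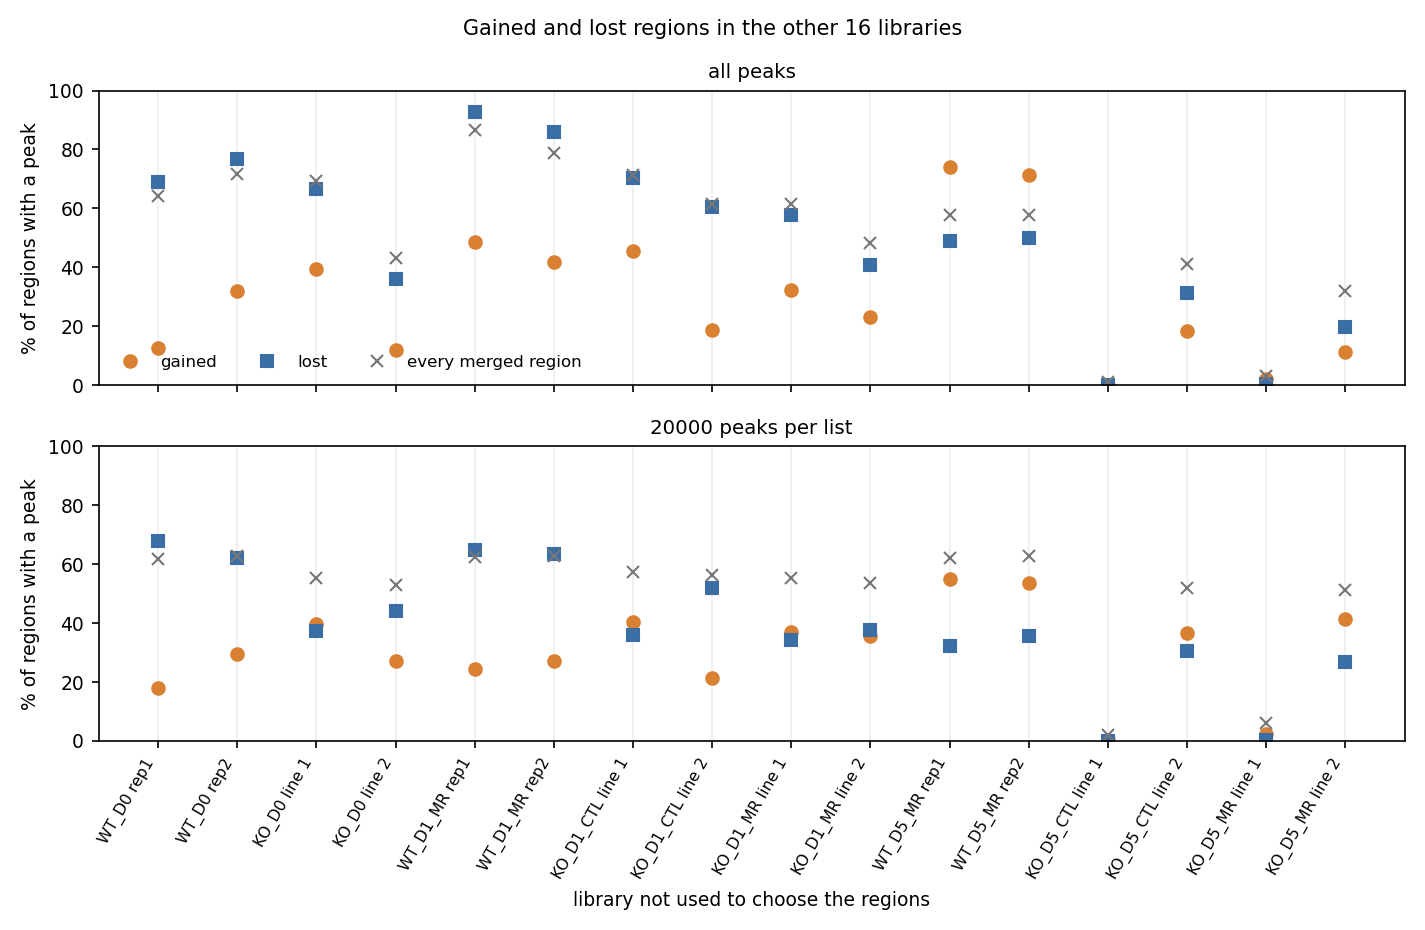
Percent of gained, lost and all merged regions that had a peak in each of the 16 libraries not used to choose them, for full lists (top) and 20000 peaks per list (bottom). In the lower panel both WT D5 MR libraries held more gained (54.9% and 53.6%) than lost regions (32.3% and 35.5%), and the WT D0 and D1 MR libraries the reverse.

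The same rule was applied to the 4 WT MR libraries, which share no library with the CTL comparison. Full MR lists gave 1238 gained (1.66%) and 16460 lost regions (22%) of 74656, and 20000 peaks per list gave 2422 gained (8.96%) and 2466 lost (9.12%) of 27026. Of the 3083 regions gained in CTL, 711 (23.1%) overlapped a region gained in MR and 43 (1.39%) one lost in MR, and 706 (29.1%) of the 2422 gained in MR overlapped one gained in CTL. Of the 3324 lost in CTL, 762 (22.9%) overlapped one lost in MR and 63 (1.90%) one gained, and 761 (30.9%) of the 2466 lost in MR overlapped one lost in CTL. Sarcomere genes had 45 gained and 2 lost of 125 regions in MR (36% and 1.60%), and muscle metabolism genes had 10 and 5 of 42. Excitation-contraction genes had 18 and 5 of 107. Collagen and matrix genes had 14 gained and 13 lost of 166, near the background in both directions, so their excess of lost regions in CTL was not seen in MR.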

How the data were processed

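ATAC-seq libraries of C2C12 cells were made from cells tagmented with a commercial kit and amplified with 10 PCR cycles, per the labels' protocols. The deposited files are 1 peak list per library, called per library, with coordinates on GRCm38 per the submitters' processing notes. The aligner, the peak caller, the handling of duplicates and the filters are not given in the sources used here. Peaks carry 4 deposited values of the authors' caller. These are the −log10 of p and of q, the fold over background as a ratio deposited in linear form, and a deposited score, which was not used further. Fold and −log10 values ranked peaks within a list. Where values of both days stand side by side they describe each library, on scales not matched between lists.

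Lists were read with Python 3.11.15 and pandas 2.3.3. Peaks were merged at an overlap of 1 bp, and the strongest 20000 peaks of each list were taken by −log10 p. Protein-coding genes (21627) and their ends came from RefSeq's table for GRCm38.p6, which carries no strand, so either end within 1 kb counted. The region sets carry no test. Values per library were compared with exact two-sided permutation tests (SciPy 1.17.1). The lookup was tested on simulated lists with 200 gained and 200 lost of 20000 regions, of which it recovered 200 and 200. The simulated lists were equally long and missed no other peak, so this checks the code and not how reliable the calls are.

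Samples were grouped by title. Replicate numbers were not used to pair the libraries in the main comparison. The correlation of replicate differences between the days was −0.012 over the 17369 regions in all 4 lists. This value cannot show whether cultures were paired, so pairing is unknown. Of the 621 genes in 24 lists, 620 matched. The named genes were list genes with a gained or lost gene end, at most 30 with values in list order, the 5 strongest regions of each set, and the 5 genes with the most regions. One of the strongest lost regions is not reported here. Genes of later lists and the loci with printed positions were named after their values were seen. Members and lists were chosen with earlier results of these data known. Alternatives were a stricter q-value, coverage of 50% of a region, ranking by fold, shorter lists, wider peaks, other gene-end distances and leaving out each library.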

Additional observations from a re-analysis of the deposited data

Results flagged for a closer look

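D5 and D1 moved in opposite directions in the media on 2 measures, without overlap between the days in either medium. The median peak width of full lists was lower at D5 by 7 bp in CTL (D5 minus D1 −7) and higher by 10 bp in MR. The gene body share of 20000 peaks per list differed by −2.26 percentage points in CTL and by 0.217 points in MR. With 2 libraries a group the difference between the media was not tested.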

How the results depend on the processing

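The main counts were 257 gained and 20659 lost regions in full lists, and 3083 gained and 3324 lost regions with 20000 peaks per list. The replicate block, which asks that both pairs of equal replicate number change the same way, gave 257, 20659, 3083 and 3324 by construction, and its smallest p for the library measures is 0.5. Requiring 50% of a region to be covered gave 6472 lost regions with 20000 peaks per list. Lists of 10000 peaks gave 1788 gained and 1871 lost. Dropping peaks under 150 bp before taking 20000 gave 237 gained and 7248 lost, because it left 9649 and 9294 peaks in the D5 lists and 20000 in the D1 lists. With 9000 such peaks in every list, an alternative chosen after seeing the data, the counts were 2114 and 2137, of which 28 and 2 were at sarcomere genes.

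When 1 library was left out, gained regions in full lists numbered 336 to 706, with 572 without D1 replicate 1 and 469 and 706 without D5 replicates 1 and 2. Lost ones numbered 22629 to 36793, the latter without D1 replicate 2. With 20000 peaks per list gained regions numbered 3696 to 4782, with 4722 and 4782 without D5 replicates 1 and 2, and lost ones 4213 to 5376, the latter without D1 replicate 2. Genes with an end peak gained numbered 30 to 61 in full lists, with 61, 37 and 46 without D1 replicate 1 and D5 replicates 1 and 2, and 1129 to 1364 with 20000 peaks per list. Genes with one lost numbered 1992 to 2753 and 485 to 551, with 544 without D1 replicate 2 and 551 without D5 replicate 2. The number of peaks stayed lower and the gene-end share higher at D5 without any 1 library, by −38517 to −23889 peaks and by 9.81 to 12.5 percentage points. Sarcomere genes, counted with 20000 peaks per list, had more gained than lost regions under every alternative run except the list with narrow peaks dropped and unequal lengths (12 gained, 15 lost). Read totals were not used here, so weak D5 regions may be missing at this depth. The p-values cannot fall below 0.333.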

Other observations

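Some gene lists not described above are set beside the background with 20000 peaks per list. It was 10.5% gained and 11.4% lost in CTL, and 8.96% and 9.12% in MR. Integrin and laminin genes had 11 gained (16.2%) and 7 lost (10.3%) of 68 in CTL, and 6 and 4 of 63 in MR. AP-1 genes had 9 gained regions (13.8%), each at a different gene (Fos, Fosb, Jun, Junb, Jund, Jdp2, Batf3, Maf and Maff), and 3 lost regions (4.62%) of 65. In MR the AP-1 list had 8 gained and 2 lost of 52. Notch and satellite cell genes hold receptors and ligands of muscle stem cell quiescence. They had 16 gained (14.5%) and 7 lost (6.36%) of 110 in CTL and 14 and 4 of 96 in MR. The Id, Hes, Twist, Snai and Zeb repressors of differentiation had 9 gained (6.08%) and 15 lost (10.1%) of 148 in CTL. In MR they had 8 and 14 of 136. In full lists 0.411% of every region was gained and 33% lost. There AP-1 genes had 0 gained and 26 lost (21.8%) of 119, and integrin and laminin genes 1 and 60 (36.4%) of 165. Notch and satellite cell genes had 0 and 78 (31.5%) of 248, and the repressors 1 and 104 (33.0%) of 315, both near the background share of losses. The lists were described after their values were seen, and no test was run on these counts.

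By chromosome, at the same list length of 20000 peaks, gained regions were 8.05% of the merged regions of chromosome 3 and 13.2% of those of chromosome 19. Lost regions were 9.72% on chromosome 19 and 14.1% on chromosome 13.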
